A study of Mus musculus with 84 samples.

Results

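The liver of ob/ob mice was compared between a high-fat diet (HFD) and a normal diet (ND). The comparison rests on 6 RNA sequencing libraries, 3 livers from ob/ob mice on HFD and 3 from ob/ob mice on ND, chosen by the genotype, diet and tissue in the sample labels, of 84 libraries in the series. The whole series covers WT and ob/ob mice on either diet, 12 mice in all, with 7 tissues taken from each. A duration of 20 weeks is labelled, either the animals' age or the length of feeding, and no strain, sex or diet composition is named. All 6 animals of the comparison carry the ob/ob genotype, so the comparison shows a diet difference on a background that lacks working leptin. Values of the matching WT livers (3 HFD, 3 ND) are given where the diet effect of the 2 genotypes is set side by side. All 12 livers were fitted together, so the WT livers also add to the estimate of spread behind the ob/ob p-values. Each library is labelled with its own mouse number, and the p-values of the fit rest on the spread between mice within the liver groups of both genotypes.

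The ob mutation removes leptin, the hormone by which fat tissue reports energy stores to the brain, and ob/ob mice overeat, become severely obese and develop a fatty liver. The liver makes fatty acids from dietary carbohydrate: citrate leaves the mitochondrion, is cleaved to acetyl-CoA, carboxylated, assembled into palmitate, elongated and desaturated, and the genes for these steps are induced by insulin and carbohydrate through the transcription factors SREBP-1c and ChREBP. Cholesterol synthesis is controlled by the related SREBP-2, which responds to cholesterol in the cell.

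The 6 ob/ob libraries held between 12502354 and 14004875 counts each, and the 10 most abundant genes took 17.64% to 21.84% of the counts. Among 49671 genes in the table, 13246 passed the filter on low counts and were tested. Hepatocyte markers were at high levels in every library: albumin (Alb) was at 71230, 75640 and 80110 CPM (read counts scaled to a common library size of 1000000) on ND and at 70970, 50430 and 56090 on HFD. Of 10 pancreas markers, 7 were at 0 in all 6 libraries. Leptin (Lep) was at 3.09, 3.23 and 0.143 CPM on ND and at 0, 0.417 and 0 on HFD; counts over this gene do not check the genotype, because they cannot show a point mutation and liver is not its site of synthesis. The HFD livers differed among themselves more than the ND livers did: the mean absolute log2 difference was 0.363 between HFD mice 1 and 2, 0.309 between 2 and 3 and 0.294 between 1 and 3, against 0.248 to 0.27 among ND livers.

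HFD changed 121 of the 13246 genes tested in ob/ob liver at an adjusted p under 0.05, which is 0.913% (edgeR quasi-likelihood test, Benjamini-Hochberg adjustment over all genes tested). Of these, 50 rose (0.377%) and 71 fell (0.536%). The change was at least 2-fold for 20 of the genes that rose and for 31 of those that fell. The median log2 fold change over all genes tested was -0.002. Irrespective of the test, the 3 HFD values lay wholly above the 3 ND values for 8.82% of the genes and wholly below for 9.04%. Enzymes of fatty acid synthesis and desaturation stood among the genes that fell, together with a set of cytochrome P450 and glutathione S-transferase genes, while acute phase genes were among those that rose. The number called depended on single animals: it was 54 without HFD mouse 2, 38, 45 and 37 without ND mouse 1, 2 and 3, and 146 and 145 without HFD mouse 1 and 3. All 121 genes kept their direction in each of these 6 fits. Their HFD and ND values did not overlap, so leaving out 1 library could hardly turn a direction. Of the 121, 21 stayed past the threshold in all 6 fits. With the 6 ob/ob livers fitted alone, 51 genes were called.

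Genes of fatty acid synthesis fell together on HFD. Of 22 listed genes tested, 10 fell and none rose, 17 had all 3 HFD values below all 3 ND values, and the median log2 fold change of the list was -0.84. Over all genes tested, 0.536% fell and 9.04% had all HFD values below all ND values. Stearoyl-CoA desaturase 1 (Scd1), which puts the first double bond into saturated fatty acids, was at 31590, 26070 and 30660 CPM in the 3 ND livers and at 8539, 10600 and 11660 CPM in the 3 HFD livers. The groups were far apart, and the log2 fold change was -1.52 ± 0.15 (SE; adjusted p = 0.000445, edgeR). Elongase 6 (Elovl6), which extends palmitate to stearate, was at 188.2, 195.5 and 265.4 CPM on ND and at 51.4, 62.4 and 65.04 on HFD, a log2 fold change of -1.86 ± 0.18 (adjusted p = 0.00044). Gm35986, a gene model on the opposite strand whose start overlaps that of Elovl6, fell by 1.68 on the log2 scale. The counting used no strand, so the strand of origin of a read is unknown. It used no overlap option either, so a fragment that matches both genes equally counts for neither.

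The steps upstream of desaturation fell as well. ATP-citrate lyase (Acly), which makes cytosolic acetyl-CoA from citrate, was at 382.3, 502.9 and 350.5 CPM on ND and at 107.2, 158.6 and 142.9 on HFD (log2 fold change -1.60 ± 0.19, adjusted p = 0.00175). Acetyl-CoA synthetase 2 (Acss2), which makes the same product from acetate, was at 172.4, 164.8 and 156.4 CPM on ND and at 63.2, 51.3 and 71.3 on HFD (log2 fold change -1.41 ± 0.13, adjusted p = 0.00044). Fatty acid synthase (Fasn) was at 642.7, 742.1 and 669.1 CPM on ND and at 192.6, 296.4 and 229.3 on HFD (log2 fold change -1.52 ± 0.21, adjusted p = 0.00491). No HFD liver reached the lowest ND liver for any of these genes.

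Acetyl-CoA carboxylase alpha (Acaca), which commits acetyl-CoA to fatty acid synthesis, fell by 0.90 ± 0.17 on the log2 scale (adjusted p = 0.0272), and malic enzyme (Me1), a source of NADPH for the pathway, fell by 0.93 ± 0.20 (adjusted p = 0.0438). Acyl-CoA synthetase 5 (Acsl5), which activates fatty acids, fell by 0.75 ± 0.13 (adjusted p = 0.0214). Thrsp (Spot 14), a lipogenic protein regulated by thyroid hormone and carbohydrate, was nearly the same in the 3 ND livers, at 591.9, 591.3 and 590.1 CPM, and at 334.8, 256.0 and 233.7 CPM on HFD (log2 fold change -1.10 ± 0.21, adjusted p = 0.0264). Pnpla3, a lipid droplet protein and SREBP-1c target, was at 3.09, 2.11 and 3.996 CPM on ND and at 0.522, 0.417 and 0.525 on HFD (log2 fold change -2.63 ± 0.48, adjusted p = 0.0215). The 12 other members did not pass the test. Among them, acetyl-CoA carboxylase beta (Acacb) had a log2 fold change of -1.26 ± 0.30 (adjusted p = 0.081) and Elovl5 one of -0.74 ± 0.18 (adjusted p = 0.0813). The regulators themselves did not pass: Srebf1, which encodes SREBP-1, was at 412.8, 261.8 and 476.2 CPM on ND and at 374.5, 188.8 and 247.5 on HFD (adjusted p = 0.349), and Mlxipl, which encodes ChREBP, had a log2 fold change of -0.22 ± 0.09 (adjusted p = 0.295). The desaturases Fads1 and Fads2 had log2 fold changes of -0.12 and -0.05, with the highest value of each in HFD mouse 3. The number of list members that fell was 10 in the whole set and between 5 and 10 when each library was left out in turn, lowest without ND mouse 3.

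**Figure D1:**
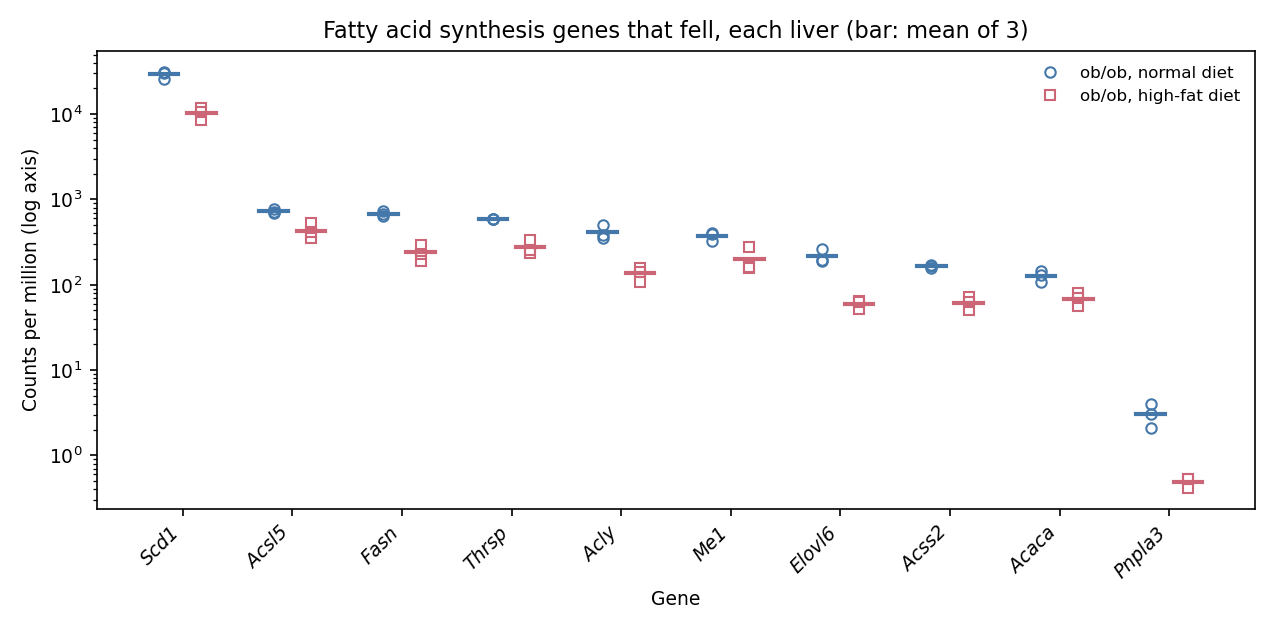
CPM (log axis) of the 10 fatty acid synthesis genes that fell, in each ob/ob liver on normal diet (circles) and high-fat diet (squares), with the mean of 3 as a bar. In all 10 genes the 3 high-fat values lie below the 3 normal-diet values.

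The sequences just before the start sites are shown for 4 of these genes, picked from those whose window holds a short promoter motif. Each is the 250 bases before the start site, 5′ to 3′ on the gene's own strand, from RefSeq (GRCm38.p6), with the CCAAT box, or its complement ATTGG, in capitals. The regions are chr11:120824548-120824797 (minus strand), chr2:155517793-155518042 (plus), chr7:97417551-97417800 (minus) and chr15:84167566-84167815 (plus).
Fasn: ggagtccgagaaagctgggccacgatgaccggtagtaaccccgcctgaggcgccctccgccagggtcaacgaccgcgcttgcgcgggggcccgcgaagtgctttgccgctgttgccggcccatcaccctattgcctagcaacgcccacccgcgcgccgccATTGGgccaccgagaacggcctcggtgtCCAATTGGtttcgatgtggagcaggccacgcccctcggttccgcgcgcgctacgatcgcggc
Acss2: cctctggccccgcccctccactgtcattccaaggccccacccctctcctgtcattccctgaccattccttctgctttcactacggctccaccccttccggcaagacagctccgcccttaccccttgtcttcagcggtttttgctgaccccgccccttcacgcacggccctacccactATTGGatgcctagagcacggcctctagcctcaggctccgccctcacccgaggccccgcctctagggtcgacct
Thrsp: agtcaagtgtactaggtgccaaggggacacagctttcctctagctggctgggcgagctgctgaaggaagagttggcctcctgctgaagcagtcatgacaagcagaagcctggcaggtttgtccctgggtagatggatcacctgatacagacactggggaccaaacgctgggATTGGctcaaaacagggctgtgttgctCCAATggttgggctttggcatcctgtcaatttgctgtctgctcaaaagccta
Pnpla3: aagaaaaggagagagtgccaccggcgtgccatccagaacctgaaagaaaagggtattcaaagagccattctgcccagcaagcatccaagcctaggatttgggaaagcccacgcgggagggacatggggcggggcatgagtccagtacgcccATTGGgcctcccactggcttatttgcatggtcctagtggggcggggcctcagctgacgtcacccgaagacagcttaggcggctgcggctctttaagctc

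The letters CCAAT, searched on both strands, are bound by NF-Y, a general promoter factor. Of the 10 fatty acid synthesis genes that fell, 9 had a start-site window and 6 of these held the motif, 66.7%, against 40.6% of the 9828 genes tested in liver that have a window and 37.5% of all 27025 genes with one. Among the cholesterol genes described next, 16 of 17 with a window held it (94.1%). The motif was in 25 of 54 windows of all genes that fell (46.3%) and in 16 of 44 of all that rose (36.4%). The E-box CACGTG was in none of the 9 windows, in 10% of those of genes tested in liver and in 6.86% of all windows, and the sterol regulatory motif TCACNCCAC, where N is any base, was in none of the 9, in 1.31% of those of genes tested and in 1.22% of all. A match is a description of letters in this window, not of a bound site.

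Cholesterol synthesis genes were lower in 2 of the 3 HFD livers, and some of them were lower in all 3. All 25 listed genes had a log2 fold change below 0, against 6681 of all 13246 genes tested, with a list median of -0.85. Over all genes tested, 9.04% had all HFD values below all ND values and 0.536% fell by the test. Of the 25, 12 had no overlap between the groups, but only 2 fell by the test. These were Tm7sf2, a sterol reductase (65.6, 73.5 and 60.3 CPM on ND; 27.2, 28.9 and 39.3 on HFD; log2 fold change -1.06 ± 0.16, adjusted p = 0.00959), and phosphomevalonate kinase, Pmvk (43.1, 39.6 and 38.5 CPM on ND; 19.9, 15.2 and 25.9 on HFD; log2 fold change -0.99 ± 0.18, adjusted p = 0.0215). Some of the remaining members, though not all, were split by animal. Squalene epoxidase (Sqle) was at 28.4, 23.2 and 35.7 CPM on ND and at 4.18, 5.70 and 28.6 on HFD. Farnesyl diphosphate synthase (Fdps) was at 30.6, 21 and 25.3 CPM on ND and at 6.12, 5.49 and 26.2 on HFD. Idi1, the isomerase before it, was at 25.5, 21.2 and 26.97 CPM on ND. On HFD it was at 5.15, 4.80 and 19.2, so that HFD mouse 3 was highest there but below the ND range. HFD mouse 3 thus lay within or near the ND range for genes in which HFD mice 1 and 2 were several-fold lower. It was the highest of the 3 HFD livers in 24 of the 25 genes (96%), against 30.6% of all genes tested, and it was at or above the lowest ND liver in 13 of the 25, where HFD mice 1 and 2 were so in 0 of 25. Without HFD mouse 3, 18 of the 25 genes fell. The same animal had the highest serum total cholesterol of the HFD mice, 355 mg/dL against 299 and 196; the relation of the 2 was not tested.

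Of 32 glucose and glycogen genes tested, 2 fell and 1 rose, with a median log2 fold change of -0.14. With DESeq2 8 were lower and 2 higher, and 16 of the 32 had an unadjusted p under 0.05 with edgeR, against 1894 of all 13246 genes tested. Ketohexokinase (Khk), the first enzyme of fructose use, was at 580.7, 727.4 and 646.7 CPM on ND and at 432.1, 416.4 and 465.1 on HFD (log2 fold change -0.57 ± 0.10, adjusted p = 0.0136). The gene that rose was the glucose transporter Slc2a1 (5.07, 5.90 and 6.78 CPM on ND; 11.3, 10.2 and 8.84 on HFD; log2 fold change 0.77 ± 0.15, adjusted p = 0.0274). Pyruvate kinase (Pklr), a ChREBP target, had a log2 fold change of -0.85 ± 0.20 with an adjusted p of 0.0677. None of 23 genes of mitochondrial fatty acid oxidation and ketone body synthesis, 13 of triglyceride assembly and 18 of the lipid droplet passed the test with edgeR or DESeq2. At an unadjusted p under 0.05 these lists had 1, 0 and 2 genes, and their median log2 fold changes were -0.06, -0.06 and -0.14. In the list of lipid uptake and lipoprotein genes, 1 of 29 fell, the phospholipid transfer protein Pltp (log2 fold change -0.97 ± 0.20, adjusted p = 0.0438).

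Some genes of drug metabolism fell on HFD. Of 33 cytochrome P450 and drug metabolism genes tested, 5 fell and none rose (median log2 fold change -0.22). Cyp2b10, the standard target of the xenobiotic receptor CAR, was at 32.3, 34.8 and 53.8 CPM on ND and at 17.98, 11.3 and 7.57 on HFD (log2 fold change -1.72 ± 0.27, adjusted p = 0.0136). Cyp2c55 fell by 1.31 ± 0.20, Cyp1a2 by 0.998 ± 0.18, the glucuronosyltransferase Ugt1a9 by 1.41 ± 0.29 and the carboxylesterase Ces1d by 0.89 ± 0.19 on the log2 scale. Outside this list the retinoic acid hydroxylase Cyp26a1 was at 16.9, 7.16 and 25.5 CPM on ND and at 3.43, 3.89 and 1.87 on HFD (log2 fold change -2.42 ± 0.48, adjusted p = 0.0323), while the retinol dehydrogenase Rdh9 rose, from 15.9, 20.9 and 16.1 CPM to 51.9, 32.5 and 34.2 (log2 fold change 1.16 ± 0.18, adjusted p = 0.0117). Of 31 genes of glutathione use and oxidative stress, 3 fell, the transferases Gstt1 (-0.68 ± 0.11), Gstm6 (-0.58 ± 0.10) and Gstm4 (-0.52 ± 0.10, log2 scale). Gstm4 and Gstm6 are close relatives on chromosome 3, so this pair is not independent. Ugt1a9 shares its last exons with Ugt1a5, which fell too (log2 fold change -1.42 ± 0.26). The counting used no overlap option, so fragments wholly within the shared exons count for neither gene. In WT liver Ugt1a9 and Ugt1a5 had log2 fold changes of 0.39 and -1.50. Whether their falls in ob/ob liver are independent was not tested.

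Among genes that differ between male and female liver, 3 of 24 female-biased genes fell and none rose (median log2 fold change -0.71). Cyp2c69 was at 3.16, 0.983 and 3.71 CPM on ND and at 0.373, 0.278 and 0.0749 on HFD (log2 fold change -3.38 ± 0.57, adjusted p = 0.0136). Its neighbour Cyp2c40 was at 5.07, 3.37 and 6.85 CPM on ND and at 1.42, 0.348 and 1.27 on HFD (log2 fold change -2.33 ± 0.44, adjusted p = 0.024). The sulfotransferase Sult2a2 was at 1.03, 0.773 and 2.92 CPM on ND and had 3 counts in all over the 3 HFD livers (adjusted p = 0.0264), too few to size the fall. These 3 genes are low in the ob/ob libraries and have close relatives, so their values are uncertain. One of 29 male-biased genes fell, Cyp2f2, at 565.3, 747.0 and 756.2 CPM on ND and 382.6, 425.1 and 431.2 on HFD (log2 fold change -0.74 ± 0.13, adjusted p = 0.0195).

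Outside metabolism, Raet1d and Raet1e fell, ligands of the NKG2D receptor of natural killer cells. Raet1d was at 129.0, 94.1 and 78.6 CPM on ND and at 25.8, 25.2 and 30.1 on HFD, and its log2 fold change was -1.89 ± 0.19 (adjusted p = 0.000508). Raet1e was at 58.98, 49.9 and 36.2 CPM on ND and at 7.39, 13.4 and 12.7 on HFD (log2 fold change -2.11 ± 0.24, adjusted p = 0.00129). The 2 genes overlap on chromosome 10 in the annotation and are close copies, so their counts are uncertain as single values. The 250 bases before a start site of each are given because they show how near the copies are, with the bases that differ in capitals (chr10:22361644-22361893 and chr10:22173247-22173496, plus strand, GRCm38.p6, RefSeq). Over 248 aligned bases, without gaps, 245 are identical (98.8%).
Raet1d: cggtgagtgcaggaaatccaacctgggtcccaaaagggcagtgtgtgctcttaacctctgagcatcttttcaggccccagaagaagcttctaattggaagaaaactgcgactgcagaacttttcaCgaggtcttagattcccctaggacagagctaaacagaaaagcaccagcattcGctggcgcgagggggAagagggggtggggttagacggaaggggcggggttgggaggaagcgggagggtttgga
Raet1e: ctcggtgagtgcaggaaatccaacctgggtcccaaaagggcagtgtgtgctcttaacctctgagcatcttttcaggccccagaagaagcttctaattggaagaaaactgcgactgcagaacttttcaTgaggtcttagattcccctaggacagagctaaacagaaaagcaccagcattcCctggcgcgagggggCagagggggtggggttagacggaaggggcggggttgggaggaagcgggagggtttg

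Further genes with a large fall were Slc34a2, a phosphate transporter (4.92, 14.4 and 9.85 CPM on ND; 0.149, 2.64 and 0.749 on HFD), the adenylyl cyclase Adcy1 (10.3, 3.37 and 5.35 CPM on ND; 0.746, 1.32 and 0.899 on HFD) and A4gnt, a glycosyltransferase (8.01, 7.09 and 4.85 CPM on ND; 0.522, 1.11 and 1.57 on HFD). Their log2 fold changes were -3.01 ± 0.58, -2.66 ± 0.43 and -2.62 ± 0.35. Serpinb1a, an inhibitor of neutrophil proteases, fell by 1.67 ± 0.24, and Fam198a by 1.82 ± 0.38. Carbonic anhydrase 3 (Car3) fell by 0.98 ± 0.20 (3103, 3191 and 2656 CPM on ND; 1720, 975.7 and 1843 on HFD). Car3 is also in the adipocyte marker list, where it makes up most of the summed level. The defining adipocyte marker Adipoq was at 11.8, 2.60 and 0.0714 CPM on ND and at 0.0746, 0.417 and 0.15 on HFD, highest in ND mouse 1.

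Acute phase genes accounted for 7 of the 50 genes that rose. Of 30 listed genes tested, 7 rose and 1 fell, 14 had all HFD values above all ND values, and the median log2 fold change was 0.34. Over all genes tested, 0.377% rose, 0.536% fell and 8.82% had all HFD values above all ND values. Lipocalin 2 (Lcn2), which binds bacterial siderophores, was at 40.9, 47.8 and 49.8 CPM on ND and at 150.4, 270.6 and 119.1 on HFD (log2 fold change 1.96 ± 0.32, adjusted p = 0.0136). The inter-alpha-trypsin inhibitor chains Itih3 (580.7, 529.6 and 576.5 CPM on ND; 1075, 1059 and 769.1 on HFD) and Itih4 (1146, 1130 and 1153 CPM on ND; 1908, 1538 and 1483 on HFD) lie next to each other on chromosome 14 and rose by 0.78 ± 0.13 and 0.52 ± 0.11 on the log2 scale. Serpina3n rose by 0.56 ± 0.10 and the metalloreductase Steap4 by 0.62 ± 0.11. The other listed genes that rose were the interleukin 6 receptor chain Il6ra (54.9, 41.2 and 37.96 CPM on ND; 90.5, 87.04 and 58.2 on HFD; log2 fold change 0.81 ± 0.16) and the transcription factor Cebpd (3.16, 2.74 and 1.64 CPM on ND; 5.97, 6.67 and 5.55 on HFD; log2 fold change 1.27 ± 0.25). The member that fell was Hamp2, a hepcidin, at 73.3, 59.1 and 71.5 CPM on ND and 16.6, 14.04 and 8.92 on HFD (log2 fold change -2.36 ± 0.46, adjusted p = 0.0272), a call kept when HFD mouse 1 was left out and lost without any other of the 6 livers. The classic serum amyloid genes did not pass: Saa1 was at 73.5, 91.2 and 86.5 CPM on ND and at 128.4, 339.8 and 113.0 on HFD, highest in mouse 2 (adjusted p = 0.177). Of this list, 7 genes rose with all libraries and between 0 and 7 when each library was left out, 1 without HFD mouse 2, 1 without ND mouse 1, 1 without ND mouse 2 and 0 without ND mouse 3.

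Outside the acute phase list, Slc3a1, the heavy chain of a transporter of cystine and dibasic amino acids, was at 10.7, 9.48 and 10.9 CPM on ND and at 42.5, 57.2 and 25.4 on HFD (log2 fold change 2.01 ± 0.23, adjusted p = 0.00123). Errfi1, a feedback inhibitor of the EGF receptor, was at 335.7, 267.5 and 364.0 CPM on ND and at 985.8, 993.8 and 789.7 on HFD (log2 fold change 1.52 ± 0.15, adjusted p = 0.00044). Nr0b2 (SHP), the repressor that bile acid sensing induces in liver, was at 3.89, 6.32 and 10.5 CPM on ND and at 27.5, 18.8 and 17.9 on HFD (log2 fold change 1.63 ± 0.28, adjusted p = 0.0147). In the bile acid list Nr0b2 and the uptake transporter Slco1b2 (log2 fold change 0.54 ± 0.12) were the 2 of 25 genes that rose, and none fell. Cyp8b1, the sterol 12-alpha-hydroxylase, was at 470.2, 588.6 and 369.1 CPM on ND and at 140.4, 149.3 and 413.8 on HFD, with HFD mouse 3 again inside the ND range (adjusted p = 0.163).

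Further genes that rose had varied roles. Pim3, a serine/threonine kinase, rose by 1.07 ± 0.16 on the log2 scale, Plk3 by 1.30 ± 0.21 and Zfp36, which destabilises cytokine mRNAs, by 0.78 ± 0.13. The clock-linked genes Usp2 (log2 fold change 1.28 ± 0.24) and Ciart (1.14 ± 0.19) rose, the only 2 of 21 clock genes to pass, and the list's median was 0.001; the hour of dissection is not given in the labels. Asparagine synthetase (Asns), a target of the amino acid response, was at 0.808, 0.562 and 0.642 CPM on ND and at 2.02, 2.64 and 2.62 on HFD (log2 fold change 1.84 ± 0.32, adjusted p = 0.0179), the 1 of 18 integrated stress response genes to rise. Foxo3, a transcription factor restrained by insulin, rose by 0.62 ± 0.12, the 1 called of 20 insulin signalling genes. At low levels, S1pr5, a receptor of sphingosine 1-phosphate, and Steap2 rose too, with log2 fold changes of 1.27 and 1.39.

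Ang and Rnase4, secreted ribonucleases encoded at 1 locus, rose together. Rnase4 was at 244.7, 256.6 and 194.4 CPM on ND and at 637.0, 707.5 and 463.6 on HFD (log2 fold change 1.38 ± 0.16, adjusted p = 0.00169). Ang was at 27.5, 31.7 and 20.6 CPM on ND and at 65.2, 70.9 and 50.8 on HFD (log2 fold change 1.23 ± 0.16, adjusted p = 0.00348). Both annotated genes begin at the same base of chromosome 14 and overlap, so the 2 values share a start and cannot be counted as separate evidence. The shared sequence before that start is shown for this reason (chr14:51090827-51091076, plus strand, GRCm38.p6, RefSeq, no capitals).
Ang and Rnase4: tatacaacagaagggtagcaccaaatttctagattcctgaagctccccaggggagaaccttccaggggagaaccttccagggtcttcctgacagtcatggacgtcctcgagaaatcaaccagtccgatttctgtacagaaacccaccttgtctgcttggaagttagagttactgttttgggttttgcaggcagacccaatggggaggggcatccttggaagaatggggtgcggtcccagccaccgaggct

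**Figure D2:**
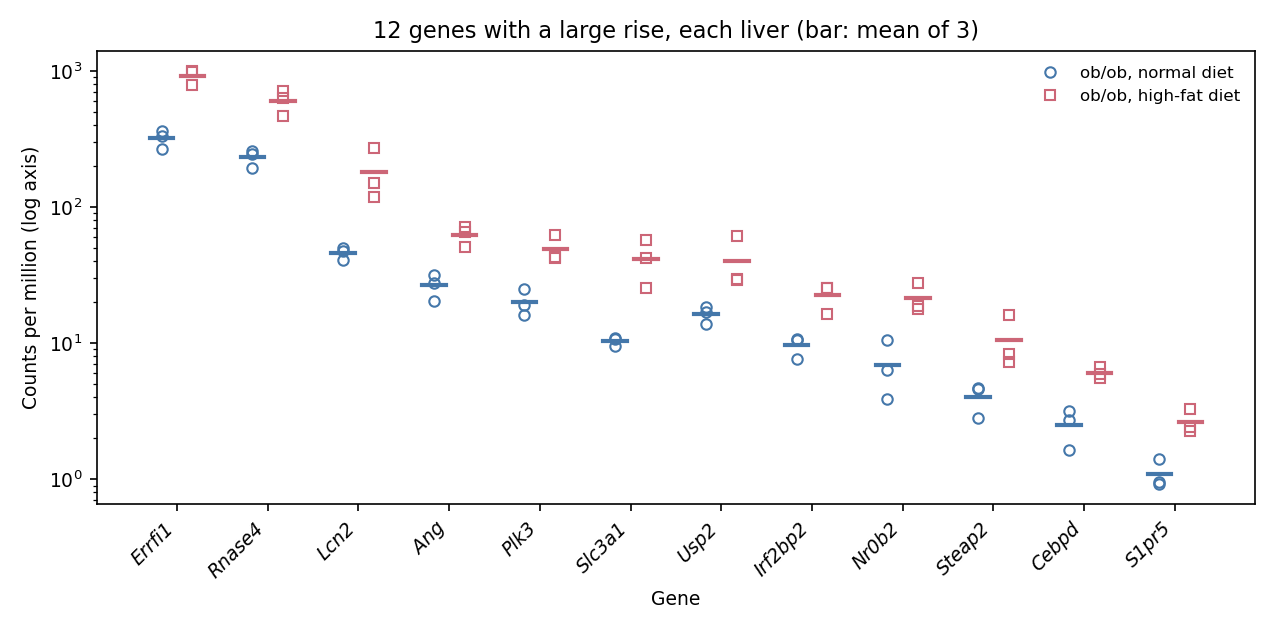
CPM (log axis) in each ob/ob liver of 12 genes with a large rise, on normal diet (circles) and high-fat diet (squares), with the mean of 3 as a bar. The groups do not overlap for any of the 12, a condition of their choice, and Lcn2 spans 119.1 to 270.6 among the high-fat livers.

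The following lists of immune, scar and cell division genes held few calls or none. Called genes outside them included Tgfbi, Themis and Apol9a, which rose by 0.84 ± 0.13, 1.17 ± 0.23 and 0.83 ± 0.15 on the log2 scale. With edgeR none of 39 extracellular matrix, 29 inflammatory cytokine and chemokine, 29 interferon response and 31 cell division genes was called in ob/ob liver. At an unadjusted p under 0.05 with edgeR they had 13, 13, 5 and 5 genes, against 1894 of all 13246 genes tested. The interferon and cell division lists were near that share. DESeq2 called 2, 3, 0 and 0 genes of these lists higher and none lower. Their median log2 fold changes were 0.58, 0.44, 0.07 and -0.26. The collagen-binding proteoglycan Lum was at 2.42, 3.37 and 3.07 CPM on ND and at 4.55, 29.4 and 6.07 on HFD, with HFD mouse 2 highest (adjusted p = 0.103). The receptor Tlr2 was at 2.64, 3.30 and 4.21 CPM on ND and at 5.82, 7.30 and 6.44 on HFD, without overlap, at an adjusted p of 0.0585. Of 20 antigen presentation genes 1 rose, the peptide transporter Tap2 (10.2, 10.2 and 10.7 CPM on ND; 14.3, 17.3 and 14.3 on HFD; log2 fold change 0.56 ± 0.12, adjusted p = 0.0414).

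Summed markers of several other liver cell types were higher on HFD, some of them in HFD mouse 2 alone. The summed CPM of 19 markers of recruited and lipid-associated macrophages was 496.9, 368.8 and 464 on ND and 385.8, 1179 and 470.1 on HFD, and HFD mouse 2 was the highest HFD liver in 17 of the 18 markers tested. The 12 cholangiocyte markers summed to 21.8, 22.6 and 25.8 on ND and to 15.5, 56.1 and 15.96 on HFD, again highest in mouse 2. Stellate cell and fibroblast markers (19 genes) summed to 313.6 to 360.2 on ND and 411.7 to 615.6 on HFD, Kupffer cell markers (12 genes) to 385.7 to 436.7 and 492.3 to 620, and neutrophil markers (12 genes) to 3.23 to 4.92 and 9.29 to 13.6; in these 3 lists, and in those of T and NK cells (5.55 to 8.89 and 9.18 to 22.9) and B cells (12.8 to 17.8 and 17.98 to 27.3), no HFD liver overlapped the ND range. Mpo was at 0 in all 6 libraries. No marker of these cell types passed the test with edgeR, while DESeq2 called 2 macrophage and 2 stellate cell markers higher. Their part in the diet differences was not tested, and in whole liver more cells of a type cannot be told apart from more RNA per cell. The 20 hepatocyte markers summed to 124900 to 132600 CPM on ND and to 127400, 98090 and 106100 on HFD.

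**Figure D3:**
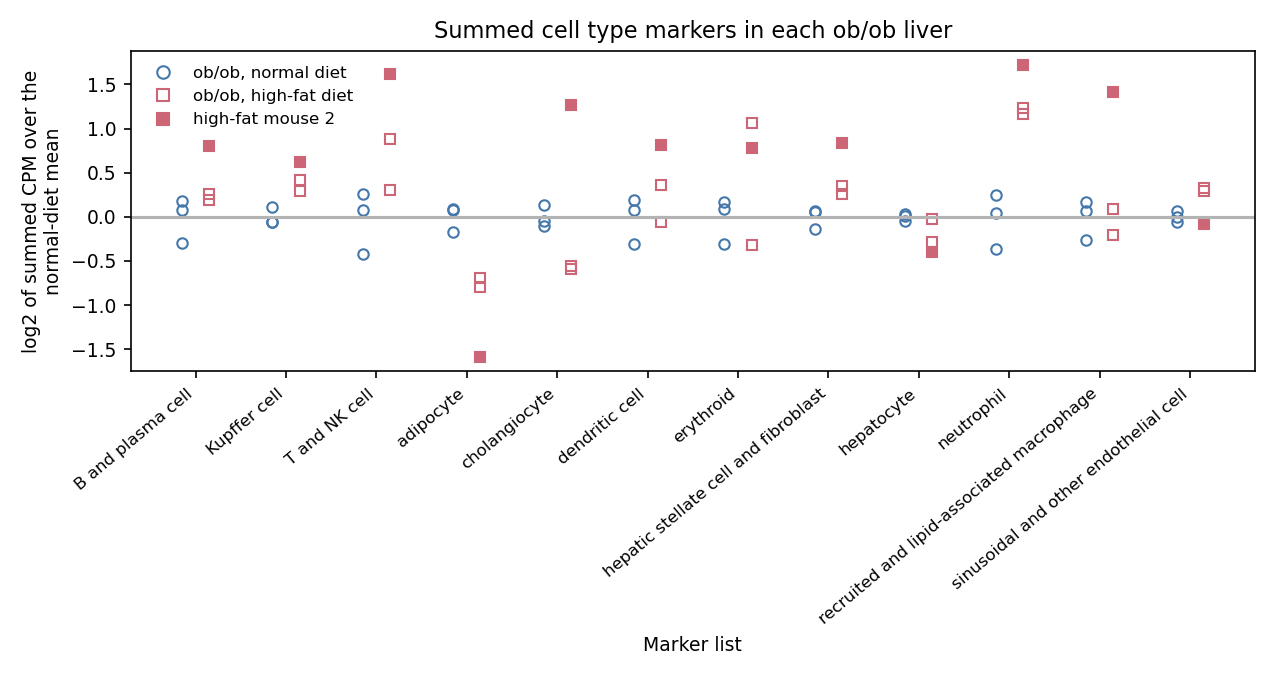
Summed CPM of each cell type's markers in each ob/ob liver, as the log2 ratio to the normal-diet mean (circles, normal diet; squares, high-fat diet; filled squares, high-fat mouse 2). The filled squares are the highest points for macrophage, cholangiocyte, stellate, neutrophil, Kupffer and T cell markers and the lowest for hepatocyte, adipocyte and endothelial markers.

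The same diet contrast in WT liver called many more genes, 2890 of 13246 (21.8%), of which 1583 rose (12%) and 1307 fell (9.87%). Leaving out 1 WT library gave 1819 to 2554 calls, fewest without WT ND mouse 1 (784 lower), and 868 genes were lower without WT ND mouse 3. The 2 contrasts share no libraries, so they can be set side by side. Of the 121 genes called in ob/ob liver, 54 (44.6%) were called in the same direction in WT liver, which is 1.87% of the WT calls, and 20 (16.5%) were called in the opposite direction. The difference between the 2 diet effects was tested directly and passed for 817 genes (6.17%), with the ob/ob effect above the WT effect for 292 (2.2%) and below for 525 (3.96%). It passed for 487 genes without WT ND mouse 1 and for 494 without WT HFD mouse 1. The count above fell to 156, 165 and 182 without WT ND mouse 1, WT HFD mouse 1 and WT ND mouse 2. Among the 121 genes, 50 passed this test, including all 20 with opposite calls.

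Some lipogenic enzymes fell more in ob/ob than in WT liver. Scd1 was at 14210, 16060 and 12490 CPM in WT ND livers and 11790, 12190 and 9570 in WT HFD livers, so that the HFD livers of both genotypes lay close to each other and the ND livers far apart. The WT log2 fold change was -0.35, and the difference between genotypes passed (adjusted p = 0.00605). The difference also passed for Elovl6 (WT log2 fold change -0.60, difference adjusted p = 0.00971) and Acss2 (WT -0.57, difference adjusted p = 0.017). For Fasn and Acly the difference did not pass (adjusted p = 0.0555 and 0.095), nor for Acaca, Me1 and Acsl5. Thrsp went the other way in WT liver: it was at 149.0, 83.2 and 77.1 CPM on ND and 266.4, 287.5 and 341.9 on HFD there (log2 fold change 1.53, difference adjusted p = 0.000399). The 25 cholesterol genes had similar medians in both genotypes, -0.85 in ob/ob and -0.97 in WT, where 15 fell, and no difference between genotypes passed the test with edgeR.

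On HFD, 10 genes rose in ob/ob liver that fell in WT liver. Errfi1 was at 1675, 1688 and 1709 CPM in WT ND livers and at 1066, 1325 and 944.8 in WT HFD livers (log2 fold change -0.60). The WT livers were above the ob/ob livers on ND, and HFD narrowed the gap from both sides. Rnase4 was at 952.9, 1275 and 1256 CPM on ND and at 712.8, 785.2 and 801.8 on HFD in WT, Ang at 184.8, 210.8 and 211.2 and then 111.1, 127.0 and 142.3, and Pim3 at 163.3, 199.3 and 139.0 and then 88.6, 107.6 and 76.4. The water channel Aqp8 did the reverse: it fell in ob/ob liver (302.4, 277.7 and 347.4 CPM on ND; 154.2, 125.3 and 192.7 on HFD) and rose in WT liver (92.7, 94.1 and 89.3 CPM on ND; 162.3, 153.5 and 150.9 on HFD). Lcn2 rose in both genotypes, by 1.96 in ob/ob and 5.62 in WT on the log2 scale, and the difference passed (adjusted p = 0.00292).

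Immune, matrix and sex-biased lists also differed between genotypes. Interferon response genes rose in WT liver in 26 of 29 cases (median log2 fold change 1.60) and in 0 of 29 in ob/ob liver, and 16 of the 29 differed between genotypes, all lower in ob/ob. Rsad2, an antiviral enzyme, was at 18.6, 20.9 and 14.6 CPM on ND and 14.1, 14.7 and 12.5 on HFD in ob/ob liver, while its WT log2 fold change was 2.05 (difference adjusted p = 0.000275). Of the extracellular matrix list, 21 of 39 rose in WT and 8 differed, all lower in ob/ob. Cell type markers moved with these lists in WT liver: 9 of 18 stellate cell and fibroblast markers and 11 of 18 macrophage markers rose and 11 of 20 hepatocyte markers fell, and their part in the list changes was not tested. Over all genes tested, 12% rose and 9.87% fell in WT liver. Male-biased genes fell in 13 of 29 cases in WT (median -1.26) against 1 in ob/ob (median 0.20), and 9 differed, all higher in ob/ob.

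**Figure D4:**
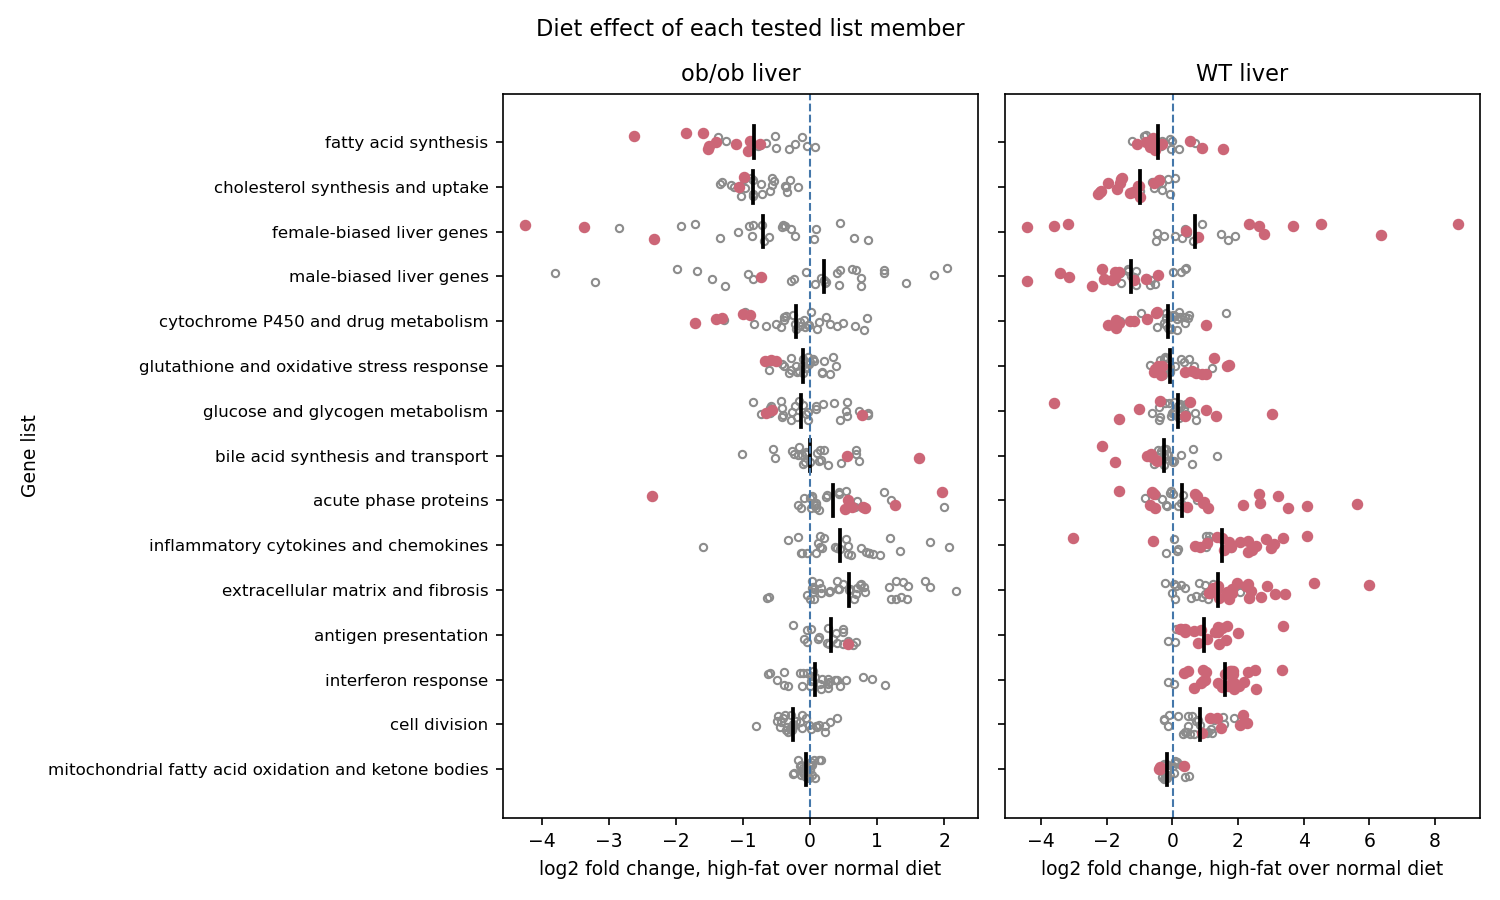
log2 fold change on high-fat over normal diet of each tested gene in 15 lists, in ob/ob liver (left) and WT liver (right), which have different horizontal scales. Filled points passed an adjusted p of 0.05, black bars are list medians and the dashed line is the median of all genes tested; fatty acid synthesis has 10 filled points in ob/ob liver, and interferon response has 0 there and 26 in WT.

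**Figure D5:**
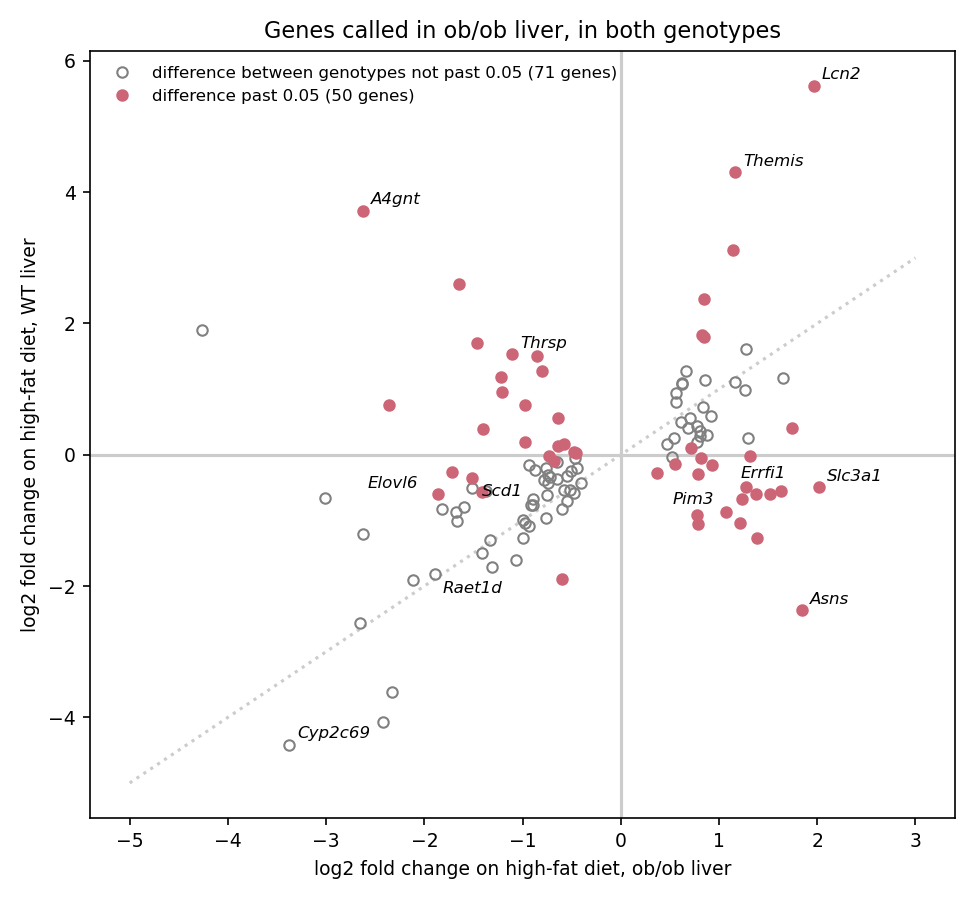
log2 fold change on high-fat diet in ob/ob liver (horizontal) and WT liver (vertical) of the 121 genes called in ob/ob liver, with equality dotted. Filled points are the 50 genes whose diet effect differed between genotypes; 20 of them, such as Thrsp, A4gnt, Errfi1 and Asns, were called in opposite directions.

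The weights and blood of the 6 ob/ob mice were recorded for 12 measures, with 3 mice a group, except free fatty acids with 2 values on ND. Liver weight was 4.529, 3.99 and 4.261 on ND and 3.035, 3.567 and 3.352 on HFD, with no unit named in the table, so that every HFD liver was lighter than every ND liver (mean difference -0.942). Fasting glucose was 160, 181 and 173 on ND and 110, 118 and 117 on HFD, also without overlap and with no unit named. The serum glucose of the same mice overlapped between the diets, at 290, 253 and 384 mg/dL on ND and 267, 378 and 412 mg/dL on HFD (mean difference 43.3 mg/dL, exact permutation p = 0.5). With 3 mice against 3 the exact two-sided permutation test cannot go below 0.1, the value for liver weight and fasting glucose, and 0.6 after adjustment over the 12. Body weight was 68.2, 67.3 and 71.3 on ND and 71.2, 72.3 and 80.8 on HFD (exact permutation p = 0.2), and alanine aminotransferase, a marker of liver injury, was 357, 451 and 484 U/L on ND and 302, 534 and 428 U/L on HFD (exact permutation p = 0.9). In WT mice liver weight went the other way, from a mean of 1.20 on ND to 2.63 on HFD. For the difference between the genotypes' diet effects, an exact permutation of diet labels within each genotype gave p = 0.005. After adjustment over the 12 measures it was 0.06. The value 0.005 is the smallest this permutation allows. Its null is no diet effect in either genotype, so it cannot decide by itself whether the 2 diet effects differ.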

How the data were processed

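Whole-number fragment counts per Ensembl gene were deposited; per the file headers they were made with featureCounts 1.5.1 on paired reads over exons of GRCm38, with no strand, multi-mapping or overlap option. Trimmomatic 0.36, HISAT2 2.0.5 and featureCounts 1.5.0-p2 (another version than in the header) stand in the submitters' processing notes. The labels' protocol names hearts for every tissue. The deposited phenotype tables hold 1 value of other units per mouse.

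Genes kept by filterByExpr (smallest count 10, smallest total 15) were fitted with edgeR 4.0.16 (R 4.3.3): TMM scaling, a mean for each of the 4 liver groups (3 libraries each), quasi-likelihood tests and Benjamini-Hochberg adjustment, threshold 0.05. The WT livers add to the estimate of spread. In simulated counts with known changes in ob/ob liver (13104 genes), 79% of 2-fold and 95% of 4-fold changes were recovered. These counts were drawn for each gene separately, without an outlying animal, so the recovery in the real livers may be lower. Members and gene lists were chosen with earlier results of these data known. Named genes were the 15 largest rises and falls (regular symbol, average log2 CPM at least 1, no overlap), the 6 largest differences from WT in each direction, and list members by p or role, a few of which are not reported here; 345 gene identifiers had no symbol. Alternatives were DESeq2 1.42.0, its size factors, no filter, a replicate block, the 6 ob/ob livers alone, and each library left out. Phenotypes had exact permutation tests (scipy 1.17.1). Depth limits genes of a few counts most.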

Additional observations from a re-analysis of the deposited data

Results flagged for a closer look

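Diet effects that differed between ob/ob and WT liver by the interaction test (edgeR, adjusted p under 0.05) are given as the ob/ob log2 fold change minus the WT one. Among the 6 named genes with the lowest difference, A4gnt had -6.34, Cyp2b9 -6.97, Ptgfr -6.05, Ephb2 -8.15, Cyp2b13 -10.63 and Sprr1a -8.96. The last 3 and Ptgfr had at most 2 counts in all over the 3 WT ND livers, and A4gnt had 3, so their fitted differences depend on the prior count and are no measure of size. Cyp2b9, a female-biased P450, was at 205.4, 274.7 and 266.5 CPM in ob/ob ND livers and at 213.9, 22.3 and 254.2 in ob/ob HFD livers, against 2.50, 1.82 and 4.37 on ND and 377.3, 186.0 and 145.7 on HFD in WT.

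Among the 6 with the highest difference, Igfbp1 had 3.63, Serpine2 3.94, Cadm4 4.75, Scara5 5.01, Pitx3 5.05 and Cyp4a12b 5.45. Igfbp1, an IGF-binding protein repressed by insulin, was at 13.5, 15.9 and 32.1 CPM on ND and 24.2, 88.4 and 56.7 on HFD in ob/ob liver, and at 219.7, 280.4 and 195.0 and then 34.2, 61.96 and 59.1 in WT liver. Serpine2 rests on HFD mouse 2, at 3.89 CPM against 0.299 and 0.749; without that library the difference was 2.28 with an adjusted p of 0.262. Scara5 was at 2.16, 9.94 and 2.92 CPM on HFD in ob/ob liver and lost its call when any of 7 libraries was left out.

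The 20 genes called in opposite directions include A4gnt, given above. Those that fell in ob/ob and rose in WT liver were Gm30692 with a difference of -4.25, Dzip1l with -3.17, Thrsp with -2.64, the monocarboxylate transporter family gene Slc16a6 with -2.40, Acot11 with -2.35, Tbc1d31 with -2.17, Rcan1 with -2.08, Aqp8 with -1.73 and Tmem189 with -1.19. Dzip1l lies next to A4gnt on chromosome 9. Those that rose in ob/ob and fell in WT liver were Strbp with 0.65, Zfp36 with 1.69, Etfbkmt with 1.84, Ang with 1.90, Pim3 with 1.95, Rnase4 with 1.98, Errfi1 with 2.12, Irf2bp2 with 2.25, Steap2 with 2.66 and Asns with 4.22.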

How the results depend on the processing

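No called gene changed direction in ob/ob liver under any alternative. The HFD and ND values of these genes did not overlap, so a change of direction was hardly possible. Under all alternatives that gave a value, 20 of the 121 stayed past the threshold, among them A4gnt, Abcc9, Acly, Acss2, Ang, Aqp8, Camk1d, Cyp2c55, Elovl6, Errfi1, Fasn, Pim3, Raet1d, Raet1e, Rnase4, Scd1, Serpinb1a, Slc3a1 and Tm7sf2. The ob/ob diet effect called 121 genes (50 higher, 71 lower) and 312 (141, 171) with DESeq2, 976 (595, 381) with no filter and 51 (22, 29) in the 6 ob/ob livers alone. With no filter edgeR estimated an infinite prior degrees of freedom (5.24 with the filter), so each gene's own spread no longer counted; 50 of those 976 lay below the filter. The causes of the other differences were not tested. Leaving out 1 ob/ob library gave 37 to 146 calls, 9 to 67 higher and 22 to 88 lower. For the difference from WT, 817 genes (292, 525) became 1496 (542, 954) with no filter and 488 higher with DESeq2; leaving out 1 of the 12 libraries gave 487 to 908 calls, 156 to 342 higher and 329 to 591 lower. With the mouse number as a replicate block 110 genes were called, 101 of them among the 121; same-numbered mice did not deviate together (correlations -0.146, -0.11 and -0.066), so the numbers do not pair the mice. Leaving out 1 mouse changed the sign of the HFD minus ND difference for alanine aminotransferase (-65.7 to 50.3 U/L), total cholesterol (-10.2 to 69.3 mg/dL), free fatty acids (-197.3 to 72.7 uEq/L), triglyceride (-6.33 to 9.0 mg/dL) and lean mass (-0.262 to 1.15), none of which had passed a test, and for no other measure.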

Other observations

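Of 20 pericentral genes 1 fell, Cyp1a2, and of 21 periportal genes 1 fell, Cyp2f2. Cyp2e1, a pericentral P450, was at 3739, 4994 and 2367 CPM on ND and at 9542, 4272 and 5466 on HFD (adjusted p = 0.206, edgeR). Cdh1, an epithelial adhesion gene, was at 3.52, 1.83 and 4.495 CPM on ND and at 3.96, 33.02 and 3.82 on HFD, highest in HFD mouse 2, the liver with the most cholangiocyte marker counts. Mup20, a male pheromone carrier, was at 345.5, 353.2 and 307.8 CPM on ND and at 414.8, 2420 and 776.9 on HFD (adjusted p = 0.128).

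The list of the respiratory chain and ATP synthase held 49 nuclear genes tested. Of these, 41 had a log2 fold change below 0 in ob/ob liver (median -0.12), against 6681 of all 13246 genes tested. In 14 all HFD values lay below all ND values, against 9.04% of all genes tested. With edgeR or DESeq2 0 passed the test. At an unadjusted p under 0.05 with edgeR there were 8, against 1894 of all 13246.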
